A study of Homo sapiens with 4 samples.

Results

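Extracellular signal-regulated kinase (ERK) is the last kinase of the RAS-RAF-MEK-ERK cascade, and it switches on a set of genes whose products shut the cascade down again. The set described here holds 10 genes switched on by ERK, chosen by symbol. The feedback genes are the dual-specificity phosphatase genes DUSP1, DUSP4, DUSP5 and DUSP6 and the adaptor genes SPRY2, SPRY4 and SPRED1. The transcripts PHLDA1, ETV4 and ETV5 are read here only as output of ERK. All 10 were measured, by 29 probe sets paired with a single one of these genes, among 18132 genes and 49293 probe sets in all. DUSP4, DUSP5 and SPRY2 had 1 probe set each, and the others had between 2 and 5.

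The cells were OE33, an established human line from an adenocarcinoma of the oesophagus, grown with 15% serum. Both groups were transfected 24 hours after plating with siRNA at 50 nM and harvested 48 hours later, the knockdown group with the ON-TARGETplus SMARTpool against ARID1A and the mock group with the ON-TARGETplus Non-targeting Pool. Each group had 2 arrays, labelled biological replicates, of the Affymetrix Human PrimeView type, and p-values measure the spread between these samples only. ARID1A belongs to the SWI/SNF complex, which remodels chromatin, and binds DNA. No untransfected cells and no measurement of ERK phosphorylation were analysed here, so the values concern transcripts in serum-fed cells of 1 line.

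In the feedback loop, the phosphatases act on the kinase itself. DUSP6 sits in the cytoplasm and DUSP5 in the nucleus, and both are selective for ERK, while DUSP1 and DUSP4 are nuclear and also act on the related kinases p38 and JNK. Sprouty proteins and SPRED1 act higher up, between the growth factor receptor and RAF, and SPRED1 does so by bringing neurofibromin to RAS. ETV4 and ETV5 are ETS-family transcription factors of the PEA3 group, whose genes are held down by the repressor CIC until ERK inactivates it. In epithelial tumours the transcripts of these genes are widely read together as a gauge of ERK activity.

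The stretches upstream of the transcription start of DUSP6 and DUSP1 are shown because these are phosphatase genes whose probe sets all had a lower mean in the knockdown cells and because the starts differ in the elements through which the cascade is known to act. They are from RefSeq (GRCh38.p14), 250 bases ending just before the start, 5′ to 3′ on the minus strand of the chromosome, at chr12:89352502-89352751 and chr5:172771196-172771445. Capitals mark a CIC octamer in DUSP6 and, in DUSP1, the cyclic AMP response element (CRE) TGACGTCA and its shorter form TGACGTC.
DUSP6: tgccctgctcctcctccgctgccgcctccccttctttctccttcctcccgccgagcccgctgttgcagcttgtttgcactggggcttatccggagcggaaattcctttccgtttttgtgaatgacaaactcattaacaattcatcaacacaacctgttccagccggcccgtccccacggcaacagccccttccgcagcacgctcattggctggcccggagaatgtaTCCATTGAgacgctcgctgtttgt
DUSP1: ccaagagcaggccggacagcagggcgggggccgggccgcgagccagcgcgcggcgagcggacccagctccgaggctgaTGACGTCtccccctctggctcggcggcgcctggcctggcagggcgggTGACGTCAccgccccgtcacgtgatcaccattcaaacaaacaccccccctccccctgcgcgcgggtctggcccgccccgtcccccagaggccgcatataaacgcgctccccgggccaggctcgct
Of the 10 genes, 6 had an entry in the promoter table (DUSP1, DUSP6, SPRY2, SPRY4, SPRED1 and PHLDA1, with 3 entries for SPRY2), and both strands of the 250 bases before each start were searched. The CIC octamer, spelled TGAATGAA, TGAATGGA, TCAATGAA or TCAATGGA, lay in DUSP6 on the opposite strand, from 24 to 17 bases before the start, and in 3.18% of all 35116 entries. The CRE lay in DUSP1 from 125 to 118 bases before the start and in 1.65% of all entries. The shorter form, which overlaps the CRE, also stood alone from 172 to 166 bases before the start of DUSP1, and 3.12% of all entries held it. The ETS site CCGGAAG (8.52% of all entries), the AP-1 site TGANTCA (6.57%) and the CArG box of serum response factor (1.16%) had no match in the 8 entries of these genes. The entries of SPRY2, SPRY4, SPRED1 and PHLDA1 held none of the motifs searched. DUSP4, DUSP5, ETV4 and ETV5 had no entry and were not searched. Whether the marked elements have a part in the values below was not tested.

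ARID1A itself was lower in both knockdown arrays at its brightest probe set, at 7.53 and 7.53 against 9.28 and 9.33 on the log2 scale in mock (log2 change -1.78, adjusted p = 0.0218). OE33 cells carried the epithelial markers: the keratin genes KRT8, KRT18 and KRT19 with EPCAM, CDH1 and CLDN4 lay from percentile 98.2 upward by level, and the markers of fibroblasts, leukocytes and endothelium at percentile 56.9 or below. The summed log2 level of the 6 epithelial markers was 79.04 to 79.15 in mock and 79.31 to 79.44 in knockdown. The 14 markers of the other cell types measured had lower values in knockdown for 12, none past the test, with sums of 22.7 to 23.2 against 21.9 to 22.5 for 5 fibroblast markers, 20.15 to 20.20 against 19.76 to 19.78 for 4 leukocyte markers and 27.1 to 27.4 against 26.3 to 26.4 for 5 endothelial markers. The 3′ signal of the beta-actin control was above the 5′ signal by 1.04 and 0.995 in mock and by 1.21 and 1.10 in knockdown, and that of GAPDH by 0.199 and 0.211 against 0.201 and 0.215. As the samples were cultures of 1 line, the marker sums are not counts of cells of other types. Some of these markers were very dim (LUM at percentile 0.63 and PTPRC at 5.5). The part of the marker and 3′ to 5′ differences in the changes below was not tested.

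No probe set of these genes passed the test. Of the 29, 0 had a limma adjusted p under 0.05, against 0.316% of all probe sets (156 of 49293). With an unadjusted p under 0.05 there were 2 positive and 7 negative changes, where all probe sets gave 9.1% positive and 7.07% negative. Over the 10 genes, each at its brightest probe set, 5 changes were positive and 5 negative, with a median of -0.0088 on the log2 scale beside -0.0043 over all genes. Their median change without regard to sign was 0.14, beside 0.099 over all genes. At these brightest probe sets DUSP5 had the largest positive value and DUSP6 the largest negative one, while over all 29 a dim probe set of SPRED1 was the most negative (-0.45). The 2 arrays of a group allow only coarse precision, and the standard errors of the 29 changes ran from 0.0710 to 0.151.

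**Figure D1:**
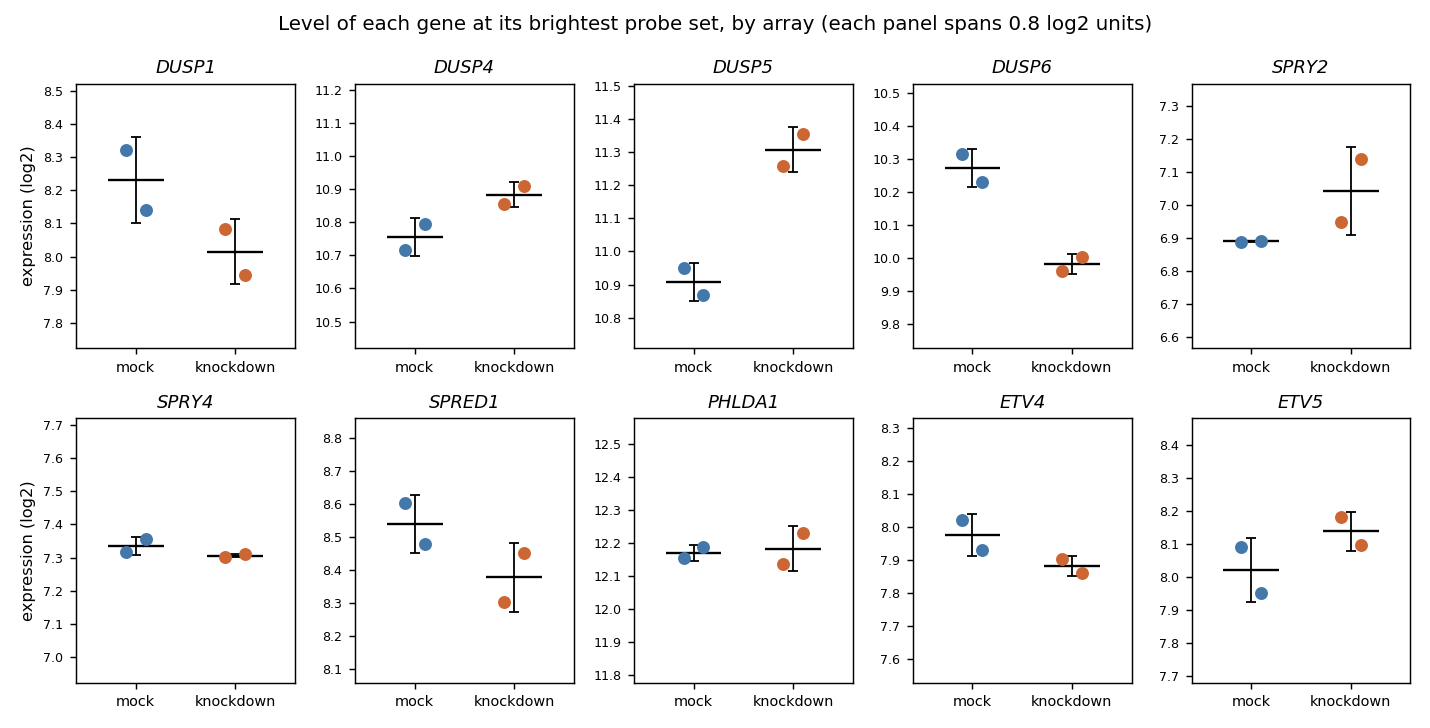
Log2 expression of the 10 genes at the brightest probe set of each, by array. Points are arrays, horizontal lines are group means and bars are SDs over 2 arrays. The groups stand well apart for DUSP5 (10.87 to 10.95 in mock, 11.26 to 11.36 in knockdown) and DUSP6 (10.23 to 10.31 in mock, 9.96 to 10.00 in knockdown), and overlap for PHLDA1.

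DUSP5, the nuclear phosphatase selective for ERK, had the largest positive value. Its single probe set, 11717863_a_at, read 10.95 and 10.87 in the mock arrays and 11.26 and 11.36 in the knockdown arrays. Both knockdown arrays were above both mock arrays, by more than the gap between arrays of a group. The knockdown level was 1.32 times that of mock (log2 change 0.40, SE 0.0796, 95% confidence interval 0.20 to 0.60, adjusted p = 0.115), and the unadjusted p of 0.00293 did not survive adjustment over all probe sets. The signal is bright, at percentile 96.3 of the probe sets by level. Whether DUSP5 passes depends on the model of the spread. Between arrays of a group the median gap was 0.117 in the dimmest 25% of probe sets and 0.0600 in the brightest 25%, and with a prior that follows the level the adjusted p of DUSP5 was 0.00163. In that fit 3209 probe sets passed (6.51%). In a fit on the mean of each gene's probe sets, its adjusted p was 0.0498 with the change as above, and 356 genes passed (1.96%).

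DUSP6, the cytoplasmic phosphatase whose transcript is a common gauge of ERK activity, had the largest negative value among the brightest probe sets of the 10 genes. Its brightest probe set, 11744618_a_at, read 10.31 and 10.23 in the mock arrays and 9.96 and 10.00 in the knockdown arrays. The knockdown arrays were below the mock arrays without overlap, and the knockdown level was 81.8% of mock (log2 change -0.29, SE 0.0753, 95% confidence interval -0.48 to -0.10, adjusted p = 0.173). The probe set 11741980_a_at read 9.81 and 9.84 in the mock arrays and 9.52 and 9.62 in the knockdown arrays, a change of -0.25. The probe set 11744435_a_at read 9.77 and 9.74 in the mock arrays and 9.46 and 9.59 in the knockdown arrays, a change of -0.23. The probe set 11722049_a_at read 9.43 and 9.46 in the mock arrays and 9.15 and 9.25 in the knockdown arrays, a change of -0.24. All 4 thus lay lower in both knockdown arrays with an unadjusted p between 0.00965 and 0.0302 and an adjusted p between 0.173 and 0.253. Over all probe sets, 22.5% were lower without overlap and 7.07% were lower with an unadjusted p under 0.05. The 4 of DUSP6 read 1 transcript in the same 4 RNA samples and are not independent. With the prior that follows the level, where 6.51% of all probe sets passed, 3 of the 4 passed (adjusted p = 0.0105, 0.0281 and 0.0408) and the other had 0.0509. Together with DUSP5 these were the 4 probe sets of the set that passed in that fit, 1 higher and 3 lower.

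DUSP1, an immediate early phosphatase of stress and mitogen signals whose start carries the CREs shown above, had lower means at all 4 probe sets. At the brightest, 11715766_a_at, it read 8.32 and 8.14 in the mock arrays and 8.08 and 7.95 in the knockdown arrays, with the lowest mock array just above the highest knockdown array (log2 change -0.22, SE 0.0980, 95% confidence interval -0.46 to 0.027, adjusted p = 0.356). The probe set 11752993_a_at read 7.16 and 7.29 in the mock arrays and 7.03 and 6.98 in the knockdown arrays, also without overlap, with a change of -0.22 (adjusted p = 0.271). The dimmer 11715765_a_at and 11758730_x_at overlapped between the groups, with changes of -0.044 and -0.24. The gap between the mock arrays at the brightest probe set, 0.182, was nearly as large as the difference between the groups.

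DUSP4, also a nuclear phosphatase, read 10.72 and 10.80 in the mock arrays and 10.86 and 10.91 in the knockdown arrays at its 1 probe set. The knockdown arrays were slightly above mock without overlap, and the interval of the difference included 0 (log2 change 0.13, SE 0.0759, 95% confidence interval -0.060 to 0.32, adjusted p = 0.466). The 4 phosphatases therefore gave values on both sides of 0, with DUSP5 and DUSP4 positive and DUSP6 and DUSP1 negative, and at the brightest probe sets the confidence intervals excluded 0 for DUSP5 and DUSP6.

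**Figure D2:**
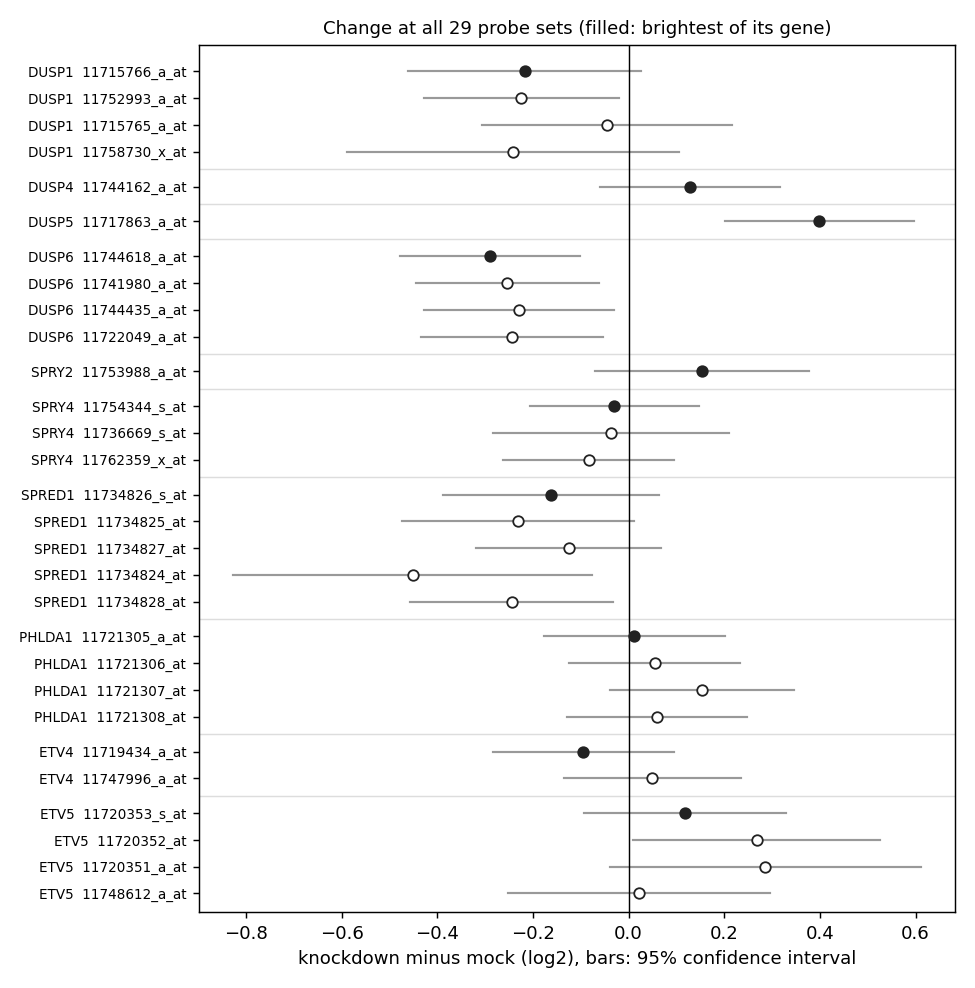
Knockdown minus mock on the log2 scale at all 29 probe sets, with 95% confidence intervals from the moderated fit. Filled points are the brightest probe set of each gene. All 4 probe sets of DUSP6 and all 5 of SPRED1 lie left of 0, and the 1 probe set of DUSP5 lies right of it. Those of SPRY4 lie between -0.083 and -0.030, and those of PHLDA1 between 0.012 and 0.15.

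The adaptors act between receptor and RAF. SPRED1, which recruits neurofibromin to the membrane, had lower means at all 5 probe sets, each without overlap between the groups. Of all probe sets, 22.5% were lower without overlap. The 5 read 1 gene in the same 4 RNA samples and are not independent. Its brightest, 11734826_s_at, read 8.60 and 8.48 in the mock arrays and 8.30 and 8.45 in the knockdown arrays. The second knockdown array was close to the lower mock array, and the change did not pass (log2 change -0.16, SE 0.0909, 95% confidence interval -0.39 to 0.064, adjusted p = 0.443). The gene-specific 11734825_at read 7.88 and 7.86 in the mock arrays and 7.52 and 7.75 in the knockdown arrays, a change of -0.23. The dim 11734824_at, at percentile 35.04 by level, read 5.26 and 4.92 in the mock arrays and 4.49 and 4.79 in the knockdown arrays, and its change of -0.45 had the widest interval of the set (-0.83 to -0.077). The remaining 11734827_at and 11734828_at had changes of -0.13 and -0.24, and the adjusted p-values of the 5 ran from 0.242 to 0.488.

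SPRY2, an inhibitor of receptor signalling to RAS, read 6.89 and 6.89 in the mock arrays and 6.95 and 7.14 in the knockdown arrays at its 1 probe set. The mock arrays were almost equal, and the second knockdown array stood highest (log2 change 0.15, SE 0.0898, 95% confidence interval -0.070 to 0.38, adjusted p = 0.463). Without that array the change was 0.059, and without the first knockdown array it was 0.25. SPRY4, a relative of SPRY2, read 7.32 and 7.35 in the mock arrays and 7.30 and 7.31 in the knockdown arrays at 11754344_s_at. The change of -0.030 had an interval of -0.21 to 0.15 (86.7% to 111% of the mock level). The other probe sets of SPRY4 were dim, at percentiles 22.8 and 17.2, with changes of -0.037 and -0.083. All 3 can hold probes that match other sequences, as their names end in _s_at or _x_at.

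None of the transcripts read as ERK output passed either. PHLDA1, which encodes a protein with a pleckstrin homology-like domain, was among the brightest signals, at percentile 98.5. At 11721305_a_at it read 12.15 and 12.19 in the mock arrays and 12.14 and 12.23 in the knockdown arrays, and the groups overlapped. The change was 0.012 (95% confidence interval -0.18 to 0.20, adjusted p = 0.965), and its other 3 probe sets had changes of 0.054, 0.15 and 0.060. At these 3 the knockdown arrays lay above the mock arrays without overlap, as at 24.2% of all probe sets. The intervals of all 4 probe sets of PHLDA1 lay within -0.18 to 0.35.

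ETV4, a PEA3-group factor, had probe sets of opposite sign. At 11719434_a_at it read 8.02 and 7.93 in the mock arrays and 7.90 and 7.86 in the knockdown arrays, a change of -0.095 (-0.28 to 0.094). At 11747996_a_at it read 7.13 and 7.21 in the mock arrays and 7.21 and 7.23 in the knockdown arrays, a change of 0.050. Neither passed (adjusted p = 0.595 and 0.796), and the 2 intervals cover each other's value. Its paralogue ETV5 was positive at all 4 probe sets. The brightest, 11720353_s_at, read 8.09 and 7.95 in the mock arrays and 8.18 and 8.10 in the knockdown arrays, a change of 0.12 (-0.094 to 0.33), with the lower knockdown array just above the higher mock array. At 11720352_at it read 6.24 and 6.26 in the mock arrays and 6.39 and 6.64 in the knockdown arrays, and at 11720351_a_at 5.99 and 6.04 in the mock arrays and 6.12 and 6.48 in the knockdown arrays. At both, the second knockdown array stood highest, and the changes were 0.27 and 0.29. The dimmest probe set, 11748612_a_at, gave 0.023. The lowest adjusted p of ETV5 was 0.295.

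Across the 29 probe sets, the groups did not overlap for 10 with knockdown above and 14 with knockdown below. Over all probe sets 24.2% were separated with knockdown above and 22.5% with knockdown below. The 14 lower ones came from DUSP6 (4), SPRED1 (5), DUSP1 (2), SPRY4 (2) and ETV4 (1). The 10 higher ones came from PHLDA1 (3), ETV5 (3), DUSP4 (1), DUSP5 (1), SPRY2 (1) and ETV4 (1). A few genes with many probe sets thus weigh heavily on both sides. By level, 13 of the 29 lay in the brightest 25% of all probe sets, 6 of them with a negative change. In the dimmest 25% lay 2, both negative, and in the next 25% lay 5, of which 4 were negative. The median change over all probe sets was -0.016 in the dimmest 25% and 0.022 in the brightest 25%.

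**Figure D3:**
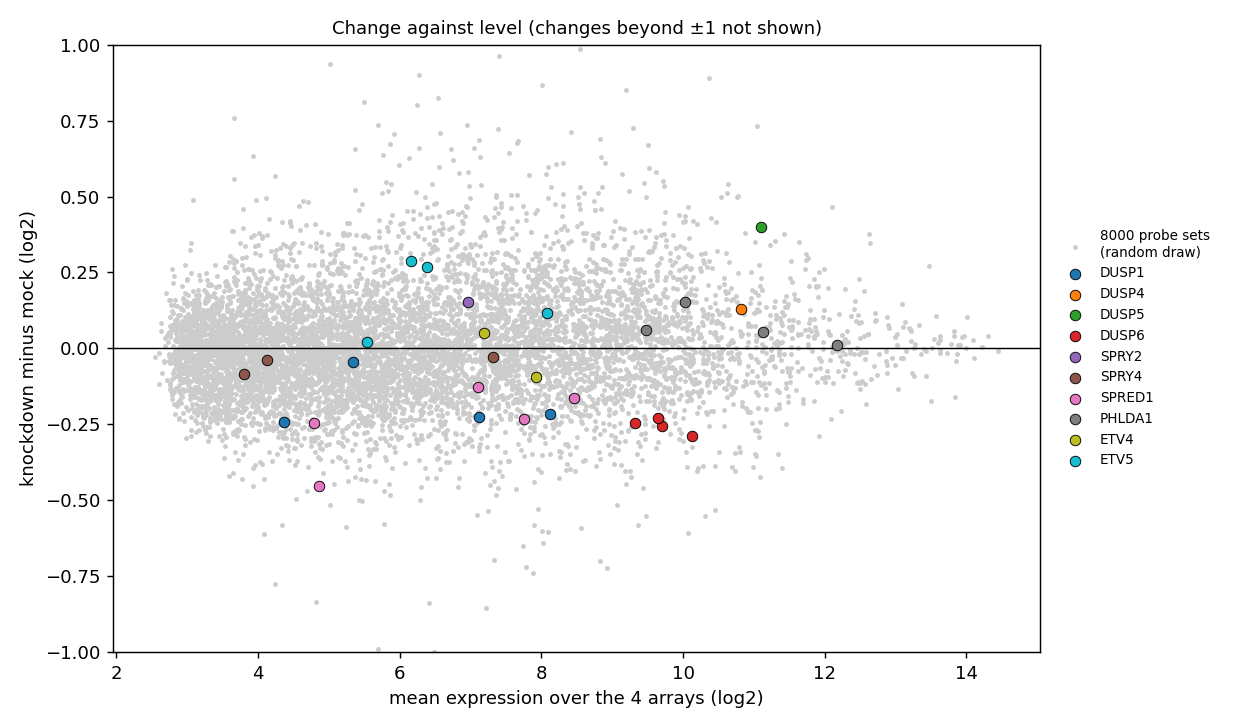
Knockdown minus mock against the mean level over the 4 arrays, both log2. Coloured points are the 29 probe sets and grey points a random draw of all probe sets, cropped to changes between -1 and 1. DUSP5 and DUSP6 lie at bright levels, where some grey points lie further from 0 in either direction. The larger negative value of SPRED1 (-0.45) lies among dim probe sets.

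Other genes of the pathway were taken from 6 lists, of which 77 of 86 genes were measured by a probe set of their own. Of these 77, 1 passed the test, where 0.403% of all genes did (73 of 18132). With an unadjusted p under 0.05 there were 12 positive and 9 negative changes, beside 9.76% and 7.25% of all genes. The median change over the 77 was -0.0035. These lists, like the 10 genes, were put together with results of the same arrays known.

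Among 16 further feedback genes and paralogues, 0 passed, 4 positive and 0 negative changes had an unadjusted p under 0.05, and the median was -0.014. ERRFI1, an inhibitor of the EGF receptor that is itself induced by growth factors, read 11.87 and 11.88 in the mock arrays and 12.36 and 12.33 in the knockdown arrays, tight within each group and 1.38 times higher in knockdown at the mean (0.47, SE 0.0706, adjusted p = 0.0754). DUSP16, a phosphatase that prefers JNK and p38, had a change of 0.55 (adjusted p = 0.0830), and its 2 other probe sets had 0.34 and 0.50. IL17RD, known as SEF, holds active MEK and ERK out of the nucleus and had a change of 0.39 (adjusted p = 0.102), with its 3 other probe sets between -0.20 and 0.30. PHLDA3, a p53 target that restrains AKT and a relative of PHLDA1, had a change of 0.41. SPRY1 gave 0, and SPRED2 -0.055.

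Of 15 other transcripts that ERK is known to induce, 0 passed, and 3 positive and 2 negative changes had an unadjusted p under 0.05, with a median of -0.0052. HBEGF, an EGF-family ligand, read 7.36 and 7.17 in the mock arrays and 6.62 and 6.48 in the knockdown arrays, lower in both knockdown arrays (change -0.72 (adjusted p = 0.0655)), while its other probe set gave -0.12. FOSL1, the AP-1 subunit FRA1, read 9.82 and 9.97 in the mock arrays and 9.29 and 9.32 in the knockdown arrays (change -0.59 (adjusted p = 0.0699)), and its 5 other probe sets lay between -0.59 and -0.30. IER3, EGR1 and IER2 had positive values of 0.33 (adjusted p = 0.132), 0.34 (adjusted p = 0.152) and 0.26 (adjusted p = 0.190). Elsewhere in this list FOS had a change of 0.29 with overlapping groups, JUNB one of 0.0084, MYC 0 and EGR3 -0.095. CCND1, encoding cyclin D1, and EPHA2, a receptor used in ERK output signatures, had changes of -0.094 and -0.081. Values in both directions thus stood side by side here as among the 10 genes.

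Of 12 genes from RAF to the ERK-activated kinases 0 passed, and 1 negative change had an unadjusted p under 0.05, that of the RAF inhibitor gene PEBP1 with -0.23 (adjusted p = 0.222). PEA15, an anchor of ERK in the cytoplasm, had -0.14 and the MEK scaffold LAMTOR3 0.12. The other probe set of PEA15 had a change of -0.40 (adjusted p = 0.0995), and that of LAMTOR3 one of 0.050. MAP2K1 and MAP2K2, which encode MEK, had changes of -0.039 and 0.014, and MAPK3, which encodes ERK1, one of 0.12. Of 9 transcription factors directed by ERK 0 passed, and 3 changes were negative at that p: ELK4 with -0.41 (adjusted p = 0.114), ETS1 with -0.20 (adjusted p = 0.252) and CREB1 with -0.22 (adjusted p = 0.263). The other probe sets of ELK4 (-0.038 to 0.18) and CREB1 (-0.48 to 0.24) lay on both sides of 0. Of 11 adaptors and RAS regulators 0 passed, and 2 positive and 1 negative change had such a p: the RAS exchange factor SOS2 with 0.37 (adjusted p = 0.190), the RAS inhibitor NF1 with 0.26 (adjusted p = 0.208) and HRAS with -0.23 (adjusted p = 0.226). NF1, the partner of SPRED1, had 20 other probe sets between -0.33 and 0.31.

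Of 14 ligands and receptors, the receptor kinase AXL was the 1 gene that passed. AXL read 9.95 and 9.82 in the mock arrays and 8.68 and 8.67 in the knockdown arrays and fell by 1.21 on the log2 scale (adjusted p = 0.0219), while its other probe set gave -0.48 and did not pass. With any one array left out, or with the replicate number as a block, AXL did not pass, and neither did ARID1A. The receptor genes ERBB3 and FGFR3 had changes of 0.60 (adjusted p = 0.0525) and 0.58 (adjusted p = 0.0764), with the other probe sets of ERBB3 at -0.23 and 0.29 and that of FGFR3 at -0.036. The list had 3 positive and 2 negative changes with an unadjusted p under 0.05, and a median of 0.0039. With the prior that follows the level, 19 of the 77 pathway genes passed, where 8.63% of all genes did (1565 of 18132).

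**Figure D4:**
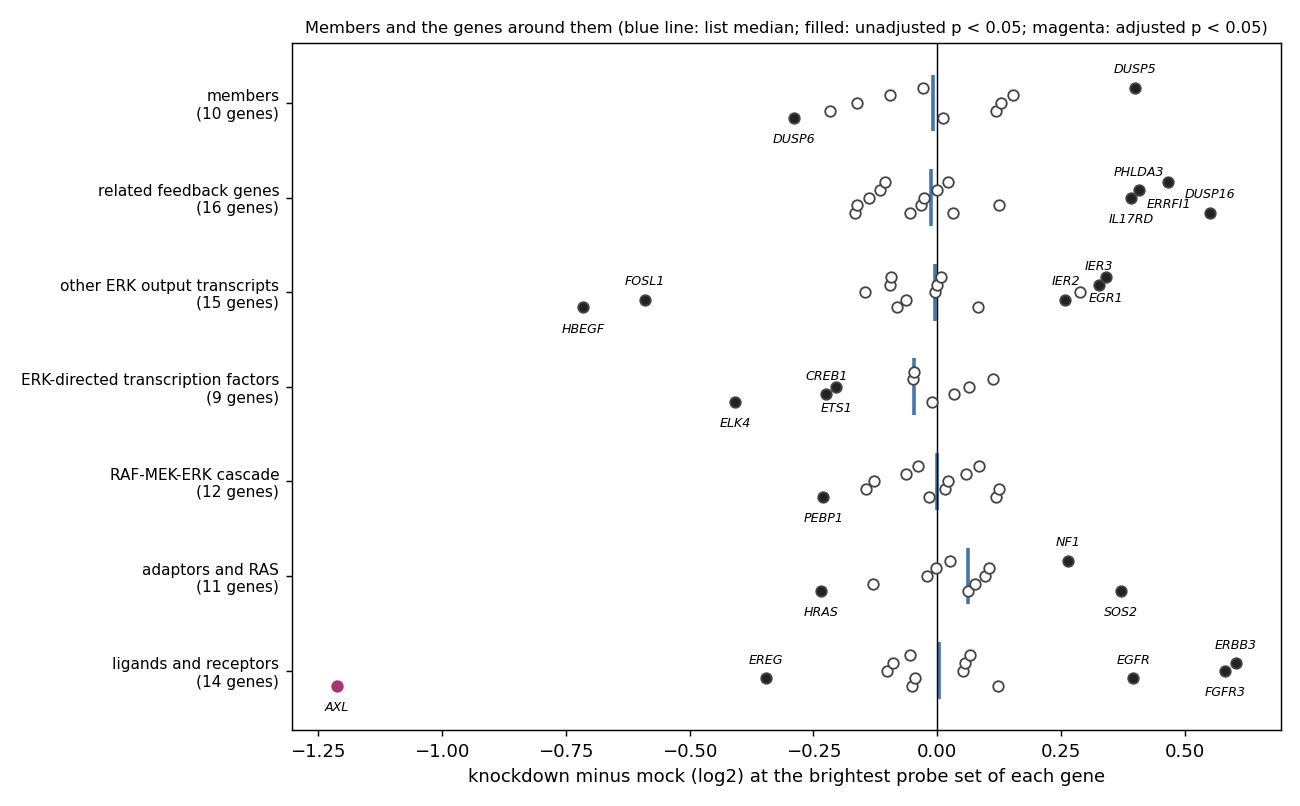
Knockdown minus mock (log2) at the brightest probe set of each gene, by list, for the 10 genes (top) and the 6 pathway lists. Blue lines are list medians, filled points have an unadjusted p under 0.05 and the magenta point, AXL, an adjusted p under 0.05. All 7 medians lie between -0.047 and 0.063, with single genes on both sides.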

How the data were processed

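The authors deposited log2 expression values per probe set, with a column for each array. RMA and Partek were used, per the submitters' processing notes, with no version or role given. RMA corrects background, sets arrays to a common distribution and summarises probes, so changes in total mRNA cannot be seen and those of dim probe sets are understated. The sources used here give no scan batches, and an array gives no read depth.

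After 79 control probe sets were left out, 49293 were compared by limma (3.58.1, in R 4.3.3; lmFit and eBayes, two-sided, 2 residual degrees of freedom, prior worth 3.62), adjusted by Benjamini-Hochberg over all of them, with a threshold of 0.05. Unless another fit is named, every p-value comes from it. The procedure was tested on simulated data in which the spread did not follow the level, so that test does not cover this feature of the arrays. SDs are over 2 arrays.

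Genes were named from the platform annotation, and the symbols of all 10 genes matched RefSeq by Entrez identifier. A gene stands by its brightest probe set paired with it alone. The members and the lists were chosen with earlier results of these data known. Named were ARID1A, all members, and of each pathway list any gene past the test and the 3 with the smallest unadjusted p. Others are named beside these, chosen after their values were seen. They are EGR1, IER2, FOS, JUNB, MYC, EGR3, PHLDA3, SPRY1, SPRED2, CCND1, EPHA2, MAP2K1, MAP2K2 and MAPK3. List genes that lack a probe set paired with them alone are not analysed here. Pairing by replicate number is not stated, and the groups were compared unpaired. Motifs are literal matches on both strands. Probe and protein sequences were not used here.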

Additional observations from a re-analysis of the deposited data

How the results depend on the processing

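The count of probe sets past the test, 156 as reported, was 671 with arrays centred on their medians (403 higher and 268 lower, against 74 and 82), 297 after another quantile normalization, 487 without the dimmest 25% of probe sets, 3209 with a prior that follows the level, 23 without probe sets ending in _s_at or _x_at, and 0 with the replicate block. Without any one array it was 0. In the sample of 2 pairs, the replicate differences of knockdown and mock correlated at -0.20 over all probe sets, so the crossed pairing was added after seeing the data, and it also gave 0. Among the 29 probe sets described here 0 passed in each of these settings, apart from the prior that follows the level (4). Averaging the probe sets of each gene left the change of DUSP5, which has 1 probe set, as it was (0.399) and gave an adjusted p of 0.0498, where 356 genes passed in all (1.96%, against 0.403%). The prior that follows the level, the replicate block and the loss of the dimmest 25% left the log2 change of every member as it was. These settings therefore cannot test its direction, nor can averaging for a gene with 1 probe set. Without probe sets ending in _s_at or _x_at, the changes moved only for SPRED1 and ETV5, while SPRY4, which has no other probe sets, dropped out. With all of these settings counted, the log2 changes kept their direction in 107 of 109 combinations of gene and setting. The exceptions were PHLDA1 without mock replicate 1 (-0.0051) and without knockdown replicate 2 (-0.0356), and its values without single arrays ran from -0.0356 to 0.0594. Without single arrays DUSP5 ranged from 0.351 to 0.447, DUSP6 from -0.331 to -0.248 and DUSP4 from 0.0884 to 0.169. The other 7 genes moved by over 1.5 times without some array: DUSP1 to -0.126 and ETV4 to -0.0505 without mock replicate 1, SPRED1 to -0.100 without mock replicate 1 and -0.0877 without knockdown replicate 1, ETV5 to 0.187 without mock replicate 1, 0.0490 without mock replicate 2 and 0.0760 without knockdown replicate 1, SPRY4 to -0.0485 and -0.0108 without mock replicates 1 and 2, SPRY2 as given above, and PHLDA1, which lies near 0, without any of the 4.

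The median of the 10 genes, -0.00883 as reported, was 0.0236 with averaged probe sets and -0.0346 to 0.0169 without single arrays. Without probe sets ending in _s_at or _x_at, and so without SPRY4, it was 0.0120. Of the 77 pathway genes, 1 passed as reported, where 0.403% of all genes did. With centred arrays 7 passed (1.58% of all genes), after quantile normalization 2 (0.756%) and without the dimmest 25% 5 (1.5%). With the prior that follows the level 19 passed (8.63%), and with the replicate block 0 (0%). ARID1A kept a log2 change of -1.78 with the replicate block (adjusted p = 0.217), and -1.80 to -1.75 without single arrays (adjusted p = 0.244 to 0.521). The block and the loss of an array leave 1 residual degree of freedom, so lost calls there say nothing about stability. The cause of the other shifts was not tested.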
